A study of Homo sapiens with 4 samples.

Results

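The data described here are 1 pair of RNA-seq libraries, spheroids of the human lung adenocarcinoma line NCI-H1993 (H1993) against a library whose label says adherent H1993 cells. The pair was chosen by its labels alone and makes up 2 of the 4 libraries of the series, and all 43622 genes of the deposited tables were considered. The other 2 libraries are A549, also a human lung adenocarcinoma line, grown adherent and as spheroids. Each group is 1 library of an established cell line that the labels call lung epithelial. The labels name no treatment, and clone, passage and time in culture are unknown from the sources at hand. The study set out to compare adherent with spheroid culture of each line.

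Adherent cells grow as a layer on plastic, while spheroids are free-floating clusters in which cells touch each other on all sides and the inside is less well supplied with oxygen and nutrients. Spheroid culture is widely used to favour cells with stem cell properties. H1993 is known for amplification of MET, the receptor of hepatocyte growth factor, and A549 for loss of KEAP1, the inhibitor of the antioxidant regulator NRF2.

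The libraries held between 15331121 and 17681746 exonic reads, and mitochondrial genes took 4.57% of them in H1993 spheroids and 8.29% in the library labelled H1993 adherent. With 1 library a side, no fold has a replicate check, so the comparison is between libraries and not between conditions. Folds are log2 values of scaled read counts with a prior count of 2, and brackets hold the 95% Clopper-Pearson counting interval, which covers counting error only. A gene was counted as higher or lower where it differed at least 2-fold and this interval excluded no change. The epithelial keratins KRT8 and KRT18 were abundant in all 4 libraries, with at least 18583 reads each. Of 20 blood cell markers, 6 were measured, that is, reached 10 reads in the pair. These markers summed to 76.4 CPM (a level scaled to library size) in H1993 spheroids and 45.0 CPM in the library labelled H1993 adherent, with the red cell genes HBA2 and HBB at 0 reads in all 4 libraries. Of the 6, 4 were higher and 1 lower (median 1.93), among them the leukocyte antigen gene PTPRC with 0, 0, 0 and 45 reads and CSF1R, a macrophage growth factor receptor, with 0, 1, 1 and 41. Endothelial markers (5 of 14, median 1.87) summed to 142 and 40.7 CPM, with ERG and TIE1 at 0 reads in all 4 libraries, and fibroblast markers (9 of 14, median -1.84) to 144 and 138 CPM, with SFRP2 at 0. The part of other cells in the folds was not tested.

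Between the 2 libraries labelled H1993, 3172 of the 16757 kept genes were higher in spheroids (18.9%) and 2970 were lower (17.7%). These 2 shares are the background for the counts of gene list members given below. In the A549 pair, 2136 genes (12.7%) were higher and 1715 (10.2%) lower in spheroids. The median fold of the H1993 pair was 0.01, with quartiles at -0.71 and 0.75. At least 16-fold differences were found in 327 genes on the higher side and 130 on the lower side. Of the genes called higher, 166 were at 0 in the library labelled H1993 adherent, and of those called lower, 137 had 0 reads in H1993 spheroids. The tables list 26865 further genes that were not kept, and 20182 genes had 0 reads in both libraries of the pair.

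**Figure D1:**
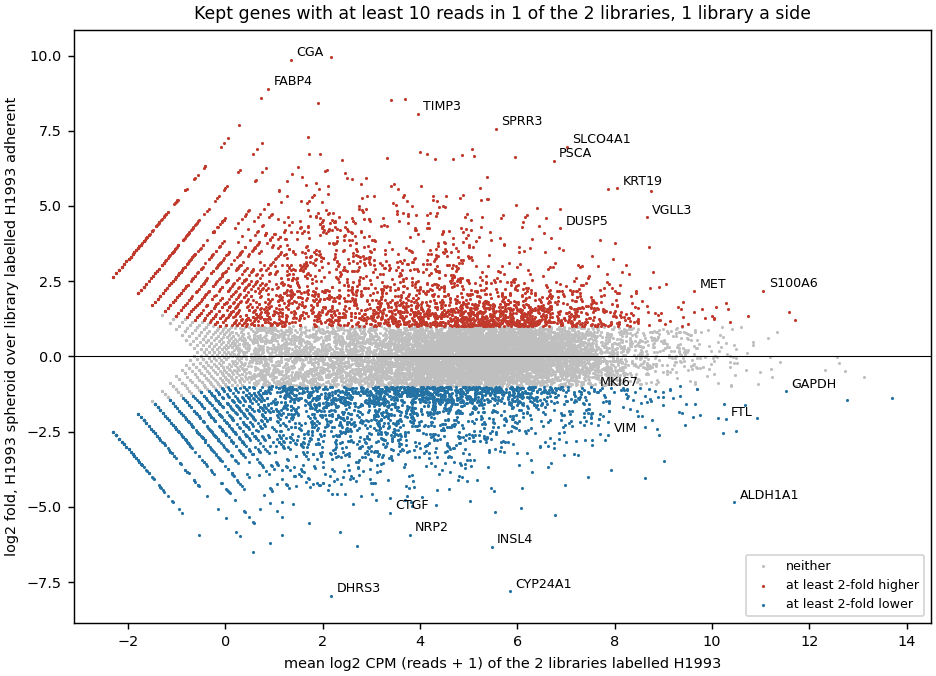
Log2 fold of H1993 spheroids over the library labelled H1993 adherent (vertical axis) against the mean log2 CPM of the 2 libraries (horizontal axis). Each point is 1 gene, coloured by the 2-fold rule with its counting interval, and the diagonal rows at the left are genes with few reads. Large folds in both directions run from the least to the most abundant genes, as CGA at 9.85 and ALDH1A1 at -4.85 show.

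Reads over introns, which come mostly from unspliced RNA of the same libraries, were set beside exon reads for genes already called by exon reads. Genes were used that had at least 100 exon reads and at least 50 intron reads in 1 library of the pair. Of 1378 genes counted as higher, 1362 were also above 0 by intron reads and 1055 passed the 2-fold rule there. Their median fold was 1.65 by exons and 1.61 by introns. On the lower side, 1220 of 1243 genes were below 0 by intron reads and 991 passed, with medians of -1.64 and -1.71. Medians of single gene lists could differ more. Over the same genes, keratins were at 1.36 by exons and 0.43 by introns. Adherens junction and desmosome genes were at 1.94 and 1.13, and NRF2 targets at -1.59 and -1.89.

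Adherent A549, and not H1993 spheroids, was the nearer profile to the library labelled H1993 adherent. A fold of the H1993 pair can therefore contain a line difference, a culture difference or both, and these cannot be told apart. For every gene, the H1993 fold is exactly the sum of 3 differences on the same log2 scale. These are H1993 spheroids minus A549 spheroids (the spheroid difference), A549 spheroids minus A549 adherent cells (the A549 fold), and A549 adherent cells minus the library labelled H1993 adherent, whose opposite is called the adherent difference. Over the kept genes, the quartiles of the spheroid differences lay at -0.78 and 0.79, and those of the adherent differences at -0.30 and 0.36. Read counts of a gene are given below in 1 order: A549 adherent cells, A549 spheroids, the library labelled H1993 adherent, H1993 spheroids.

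Genes were sorted by these differences among the 7480 that reached 500 reads in the pair, of which 1231 were higher and 959 lower in H1993 spheroids. In 2206 of them, both the A549 fold and the adherent difference were within 1.25-fold, so that H1993 spheroids alone could stand apart, and there 234 genes were higher and 157 lower. TIMP3, a matrix-bound inhibitor of metalloproteinases (chromosome 22, 32801701 to 32863043), had 13, 15, 15 and 4057 reads, a fold of 8.05 (7.52 to 9.08). Its spheroid difference was 8.0 and its A549 fold 0.12, so the whole fold equals the distance of the H1993 spheroid library from the other libraries. EPS8L1, an adaptor of actin remodelling, had 58, 74, 69 and 1994 reads and a fold of 4.98 (4.67 to 5.39). ACOT11, an acyl-CoA thioesterase, was at 3.21 and NEK7, a mitotic kinase that also takes part in inflammasome assembly, at 2.62. On the lower side, MSN, the cytoskeletal linker moesin (chromosome X, 65588377 to 65741931), had 8586, 8235, 7606 and 718 reads and a fold of -3.24 (-3.35 to -3.13). LRRK2, a kinase studied in Parkinson disease, had 538, 466, 565 and 41 reads and a fold of -3.56 (-4.11 to -3.16), and SLC22A3, an organic cation transporter, 1417, 1240, 1376 and 120 reads and a fold of -3.33 (-3.63 to -3.08). For these genes a difference between lines and a response of H1993 alone give the same numbers.

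In a further 149 genes, the A549 pair passed the rule in the same direction and the spheroid libraries lay within 1.5-fold of each other, 83 higher and 66 lower. FGFBP1, a secreted carrier of fibroblast growth factors, had 139, 2615, 25 and 2652 reads, and its fold of 6.78 (6.33 to 7.53) stood beside an A549 fold of 4.14. SLC14A1, a urea transporter, had 1, 551, 0 and 734 reads and was at least 275-fold higher in H1993 spheroids, taking 3 reads as the floor of a library at 0, with an A549 fold of 7.48. SPNS2, the exporter of sphingosine 1-phosphate, reached 708 reads in H1993 spheroids, with folds of 7.28 (6.50 to 10.33) and 5.87 in the H1993 and A549 pairs. CAPN8, a calpain protease of the stomach, was at 5.93 and 4.27, and IGF2, an insulin-like growth factor with 28.9% unique reads, at 4.66 and 3.88. Among the lower genes, BICC1, an RNA-binding protein of renal and biliary epithelium, had 2592, 192, 3770 and 149 reads and folds of -4.48 (-4.74 to -4.26) and -3.81. COL5A1, a fibrillar collagen chain, had 2274, 393, 2335 and 245 reads and folds of -3.08 and -2.60, and PDGFD, a platelet-derived growth factor, of -3.29 and -3.48. The rule of choice alone puts both spheroid libraries of these genes on the same side of both libraries labelled adherent, so this is no result.

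Over all kept genes, 743 were higher in both pairs, which is 23.4% of the genes higher in the H1993 pair, where 12.7% of all kept genes were higher in A549, and 34.8% of those higher in A549. Another 621 were lower in both, 20.9% and 36.2% of the lower genes, beside 10.2% of all kept genes lower in A549. Opposite calls were found for 204 genes higher in H1993 spheroids and lower in A549 spheroids (6.43% of the higher genes, beside the same 10.2%), and for 286 lower in H1993 and higher in A549 (9.63% of the lower genes, beside 12.7%). The H1993 and A549 pairs share no library.

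In 124 genes with at least 500 reads, the 2 libraries labelled adherent were themselves at least 4-fold apart. SPRR3, a cornified envelope protein of squamous epithelium (chromosome 1, 153001747 to 153003856), had 1, 2, 58 and 10138 reads, an adherent difference of 4.22 and a fold of 7.56 (7.24 to 8.01). PSCA, a prostate and gastric surface antigen, had 4, 10, 194 and 15903 reads and a fold of 6.51 (6.32 to 6.74). MACC1, a regulator known to raise MET transcription, had 0, 5, 58 and 5422 reads and a fold of 6.66, with 45.2% unique reads. All 3 genes were nearly silent in A549, most abundant in H1993 spheroids and intermediate in the library labelled H1993 adherent. INSL4, a placental insulin-like peptide, ran the other way with 545, 596, 6934 and 75 reads and a fold of -6.33 (-6.71 to -6.04). LXN, latexin, a carboxypeptidase inhibitor, had 1029, 1237, 6764 and 182 reads and SERPINI1, neuroserpin, reached 2999 reads, and both were highest in the library labelled H1993 adherent, with folds of -5.04 and -4.80.

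**Figure D2:**
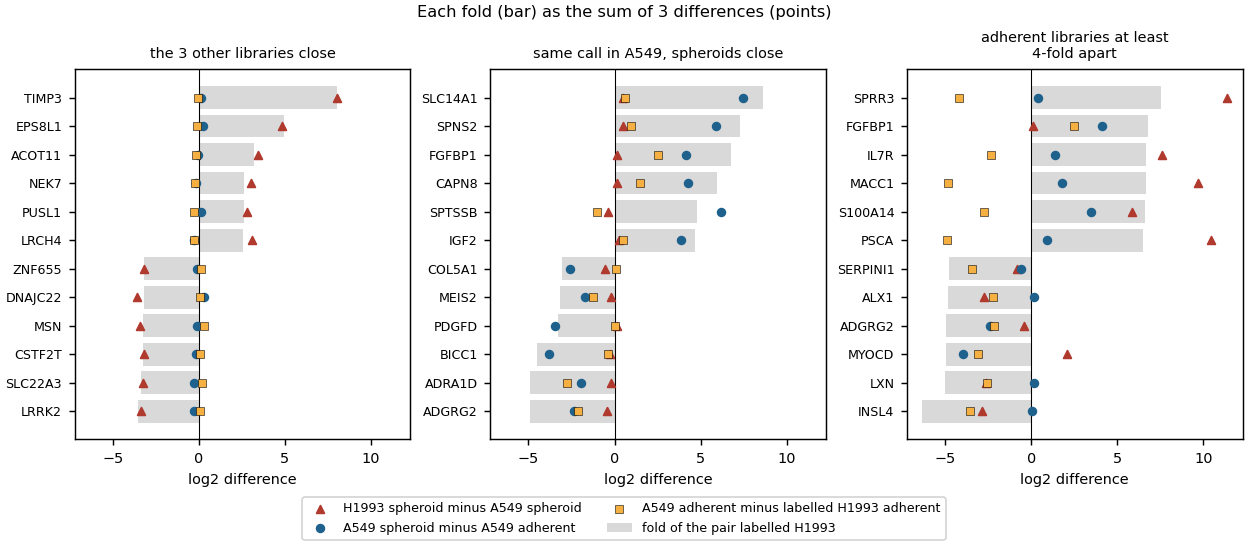
Each bar is the log2 fold of a gene in the H1993 pair, and its 3 points are the differences that add up to it (horizontal axis, log2). Left, genes in which the other 3 libraries were close, where the red triangle sits at the end of the bar. Middle, genes with the same call in A549 and close spheroid libraries, where blue and yellow points carry the bar. In the left and middle panels the rule of choice sets this layout. Right, genes at least 4-fold apart between the adherent libraries, where points fall on both sides of 0, as for SPRR3 with a spheroid difference of 11.40.

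A set chosen after its values were seen holds 15 genes with at least 1000 reads in H1993 spheroids and at most 5 in each A549 library. In the library labelled H1993 adherent their scaled levels were 0% to 8.34% of those in H1993 spheroids, with a median of 2.65%. High reads in H1993 spheroids were part of the choice, so these shares are a description of the 15 genes alone. RAB25, an epithelial recycling GTPase, had 0, 0, 68 and 1209 reads, or 5.01% of the spheroid level, and GRHL2, a master regulator of epithelial junction genes, 0, 1, 100 and 1068 reads (8.34%). CGA was at 0 reads there. The reverse set, also chosen after its values were seen, of genes with at least 500 reads in both A549 libraries and at most 5 in H1993 spheroids, held 4 genes. The library labelled H1993 adherent held between 0.08% and 16.1% of their A549 adherent level. AC105243.1, a processed transcript, had 1146, 3018, 1 and 0 reads (0.08%), and CYP4F11, a fatty acid hydroxylase, 975, 977, 31 and 4 reads (2.90%). The fibrinogen chain genes FGG and FGA had 1329, 1494, 95 and 2 and 1644, 1341, 291 and 1 reads (6.51% and 16.1%). Neither set gives a single share for all its genes.

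The highest genes of the H1993 pair were a mixed group of connexin, hormone, carrier and envelope genes. GJA5, a gap junction connexin, had 1, 14, 1 and 2746 reads and a fold of 9.95 (9.11 to 16.89). CGA, the alpha subunit of the glycoprotein hormones (chromosome 6, 87085498 to 87095406), had 0, 1, 0 and 1753 reads and was at least 656-fold higher. The adipocyte fatty acid carrier gene FABP4 had 0, 1, 0 and 905 reads and was at least 339-fold higher. These 3 genes were at 14 reads or fewer in the 3 other libraries. SLCO4A1, an organic anion transporter (chromosome 20, 62642445 to 62685785), had 195, 1079, 199 and 22361 reads and a fold of 6.96 (6.78 to 7.19), and its intron reads went from 120 to 15802. PAG1, an adaptor that restrains SRC family kinases, was at 6.89, S100A14, an epithelial calcium-binding protein, at 6.63, and IL7R, the interleukin 7 receptor, at 6.68. Their A549 folds were 3.43, 3.49 and 1.41.

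At the low end stood genes of vitamin A and vitamin D metabolism. CYP24A1, the enzyme that degrades active vitamin D (chromosome 20, 54153449 to 54173973), had 17566, 2092, 15017 and 58 reads and a fold of -7.80 (-8.25 to -7.48). DHRS3, a retinal reductase, had 774, 57, 1363 and 3 reads and a fold of -7.96 (-10.94 to -7.11). RARRES1 and RARB, a retinoid-responsive gene and a retinoic acid receptor, were at -5.83 and -5.34. The A549 folds of these 4 genes were -3.14, -3.79, -0.65 and -1.50, the same direction at a smaller size. ALDH1A1, a retinaldehyde dehydrogenase used as a stem cell marker, had 168936, 118358, 131387 and 4059 reads and a fold of -4.85 (-4.90 to -4.81), against -0.59 in A549. Of 16 measured stem cell markers, 7 were lower (43.8%) and 5 higher (31.2%), beside 17.7% and 18.9% of all kept genes. Their median was -0.68, with folds from -4.85 for ALDH1A1 to 4.30 for EPCAM. Of the 24 measured retinoid and vitamin D genes, 9 were lower and 7 higher. CRABP2, which carries retinoic acid to the nucleus, was among the higher ones with 103, 62, 220 and 3003 reads and a fold of 3.92.

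**Figure D3:**
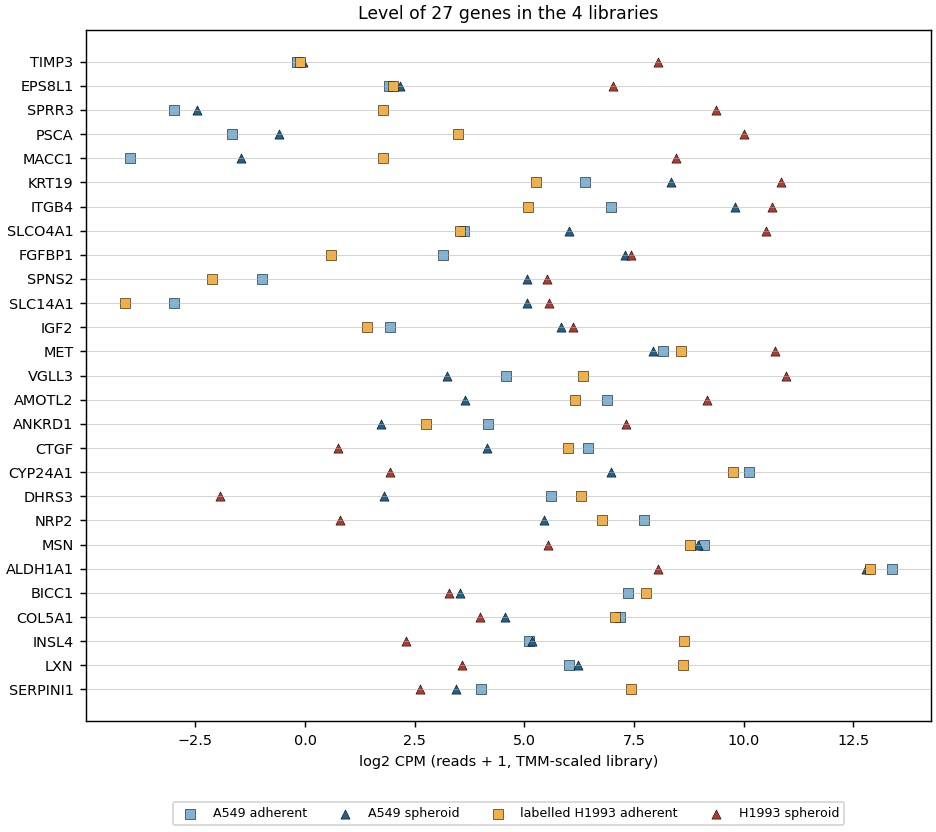
Level of 27 genes (log2 CPM with 1 read added, horizontal axis) in the 4 libraries. Squares are adherent and triangles spheroid libraries. For TIMP3, EPS8L1 and MSN the H1993 spheroid triangle stands apart from the 3 other points, for SLC14A1, SPNS2 and BICC1 both triangles stand apart from both squares, and for INSL4 and LXN the square of the library labelled H1993 adherent is the highest point.

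Genes that join epithelial cells to each other were higher in H1993 spheroids. Of 18 measured tight junction genes, 14 were higher and 1 lower, with a median of 2.57 against 0.24 in the A549 pair. CLDN7 and CLDN4, claudins that seal the space between cells, had 16, 10, 177 and 4135 and 58, 460, 248 and 5515 reads and folds of 4.70 and 4.63, with 46.8% of CLDN7 reads unique. LSR, a lipoprotein receptor of the corners between epithelial cells, had 343, 366, 106 and 1298 reads and a fold of 3.75 (3.49 to 4.08). CLDN2, a pore-forming claudin, was the lower gene at -1.59, with an A549 fold of 2.01. The median spheroid difference of the list was 1.21 and its median adherent difference -0.43. Of 20 adherens junction and desmosome genes, 13 were higher and 1 lower (median 1.94, A549 -0.07). DSP, desmoplakin, the desmosome's anchor to keratins (chromosome 6, 7541575 to 7586717), had 2777, 5887, 2874 and 18004 reads and a fold of 2.81 (2.76 to 2.87). EPCAM, an epithelial adhesion molecule, had 413, 308, 266 and 4716 reads and a fold of 4.30 (4.14 to 4.50). CDH3, P-cadherin, went from 190 to 1583 reads in the H1993 pair, a fold of 3.21, and from 55 to 5 in the A549 pair. The catenins CTNNB1, CTNNA1 and CTNND1, which tie cadherins to actin, were at -0.27, 0.21 and -0.23 and did not pass the 2-fold rule.

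Regulators and membrane proteases of epithelial cells moved in the same direction. Of 19 measured genes, 15 were higher and 0 lower, with a median of 3.60. Their A549 median was 0.76, their median spheroid difference 3.98 and their median adherent difference 1.42. ESRP1, which directs epithelial splicing, had 47, 30, 177 and 3908 reads and a fold of 4.61 (4.41 to 4.86). PRSS8, prostasin, and ST14, matriptase, partner proteases of the epithelial surface, were at 5.91 and 3.60, and their inhibitor SPINT1 at 3.96. ELF3, an epithelial ETS factor, was at -0.89, under the 2-fold rule.

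ZEB1 and SNAI2, repressors of epithelial genes, recognise E2-boxes, so the promoters of these genes were searched for the letters CAGGTG on both strands in the 250 bases before the RefSeq start (build GRCh38.p14). Of 42 higher junction and regulator genes, 21 had a promoter entry, and 8 of these (38.1%) held the letters. Among genes of the same lists that were not higher, 5 of 15 (33.3%) held them, and over all 27305 promoters the share was 17.5%. CRB3, an apical polarity protein with a fold of 3.32, had 5 matches, and DSP had 2. Both are printed 5′ to 3′ with the matching letters, on either strand, in capitals, CRB3 as the promoter with most matches and DSP as the gene with most reads among those with 2. By the deposited gene span given above, DSP starts inside its printed window, so its match nearest the RefSeq start lies within that span. A match is a description of letters and not a binding site.

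CRB3, chr19:6464021-6464270, plus strand: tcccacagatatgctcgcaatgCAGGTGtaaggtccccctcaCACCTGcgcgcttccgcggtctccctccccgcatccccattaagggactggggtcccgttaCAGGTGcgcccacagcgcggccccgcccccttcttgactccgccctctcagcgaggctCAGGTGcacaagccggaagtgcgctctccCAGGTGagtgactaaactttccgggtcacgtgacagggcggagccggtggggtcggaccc

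DSP, chr6:7541421-7541670, plus strand: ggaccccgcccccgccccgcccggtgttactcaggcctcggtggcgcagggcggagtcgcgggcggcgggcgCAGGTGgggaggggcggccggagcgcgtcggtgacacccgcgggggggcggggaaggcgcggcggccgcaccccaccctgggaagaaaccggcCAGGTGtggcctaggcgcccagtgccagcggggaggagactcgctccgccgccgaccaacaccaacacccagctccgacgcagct

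Keratins split between higher and lower members. Of 13 measured keratins, 9 were higher and 3 lower, with a median of 1.47 against -0.72 in A549. KRT19, a keratin of simple epithelia (chromosome 17, 41523617 to 41528308), had 1311, 5351, 666 and 28510 reads and a fold of 5.58 (5.48 to 5.70). KRT8 and KRT18, which pair in simple epithelia, had 82350, 52545, 32265 and 79513 and 54346, 27256, 18583 and 42450 reads, with folds of 1.47 and 1.36 in the H1993 pair and -0.72 and -1.07 in A549. KRT6A, of stressed and squamous epithelium, had 41, 67, 0 and 291 reads and was at least 109-fold higher, though close copies of this gene can share reads. KRT81, a hair keratin, had 46956, 17078, 28024 and 1509 reads and a fold of -4.05 (-4.12 to -3.97), and KRT4, of mucosal squamous epithelium, was at -4.30 (-11.11 to -3.26) from 62 reads and 1 read.

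Squamous and cornified envelope genes were mostly higher in H1993 spheroids. In the order given above for reads, the list summed to 948, 365, 402 and 1585 CPM. TGM2, a transglutaminase with 14756, 5773, 6398 and 9630 reads, had the most reads of the list in the first 3 of these libraries. Of 18 measured genes, 11 were higher and 2 lower, with a median of 3.21 in the H1993 pair, 0.00 in A549, and a spheroid difference of 4.17. The small proline-rich genes SPRR1A and SPRR1B, cross-linked into the cornified envelope, had 0, 3, 0 and 143 and 0, 0, 1 and 328 reads. The kallikreins KLK6 and KLK7, proteases that shed surface cells, had 1, 0, 113 and 1962 and 0, 0, 4 and 425 reads and folds of 4.26 and 6.29. SPRR1A was at least 53.5-fold higher. KLK6 alone of these 4 had more than 4 reads in the library labelled H1993 adherent. CSTA, an inhibitor of cathepsins, fell from 10 reads to 0, and CNFN, cornifelin, was at -1.71.

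S100 proteins, small calcium sensors, and annexins, which bind membranes, followed in part. Of 26 measured genes, 13 were higher and 6 lower, with a median of 1.0 and an A549 median of 0.59. S100A6 had 14403, 39585, 17394 and 69821 reads and a fold of 2.17 (2.15 to 2.20), S100P 262, 3639, 335 and 7362 reads and a fold of 4.62 (4.47 to 4.79), and their A549 folds were 1.39 and 3.71. The lower members were 5 annexins and S100A3. ANXA1, an annexin of inflammation control, had 26706, 13695, 36553 and 10963 reads and a fold of -1.57, and ANXA6 was at -2.56. ANXA8, at 5.02, had 22.2% unique reads and is uncertain.

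Mesenchymal genes and the factors that drive them were lower. Of 21 measured mesenchymal genes, 11 were lower and 2 higher, and their median was -1.83 against 0.73 in the A549 pair. VIM, the intermediate filament vimentin (chromosome 10, 17228259 to 17237593), had 8449, 16867, 10111 and 1456 reads and a fold of -2.63 (-2.71 to -2.55), while its A549 fold was 0.92. TGFBI, a matrix protein induced by TGF-beta, had 16208, 6594, 15649 and 1015 reads and a fold of -3.78 (-3.87 to -3.69). CDH2, N-cadherin, was at -2.75, TAGLN, an actin cross-linker, at -2.87 and AXL, a receptor kinase, at -2.28. FN1, fibronectin, was at 0.12 and the collagen chain genes COL1A1 and COL6A1 at 1.21 and 1.93, the last 2 of these higher. The list's spheroid difference had a median of -0.93 and its adherent difference -0.01. The separate list of fibroblast markers, which shares members with it, had 5 of 9 measured genes lower and 1 higher (median -1.84), and its part in these folds was not tested.

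Among 9 measured factors of epithelial-mesenchymal transition, 6 were lower and 1 higher, and their median was -1.56. ZEB1 had 396, 417, 499 and 61 reads and a fold of -2.83 (-3.27 to -2.48), with an A549 fold of 0.00. TWIST1 and TWIST2 had 48, 15, 297 and 12 and 99, 105, 283 and 12 reads, both highest in the library labelled H1993 adherent. PRRX1, at 2.94, rose from 5 reads to 47, and SNAI1 was at 0.01.

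**Figure D4:**
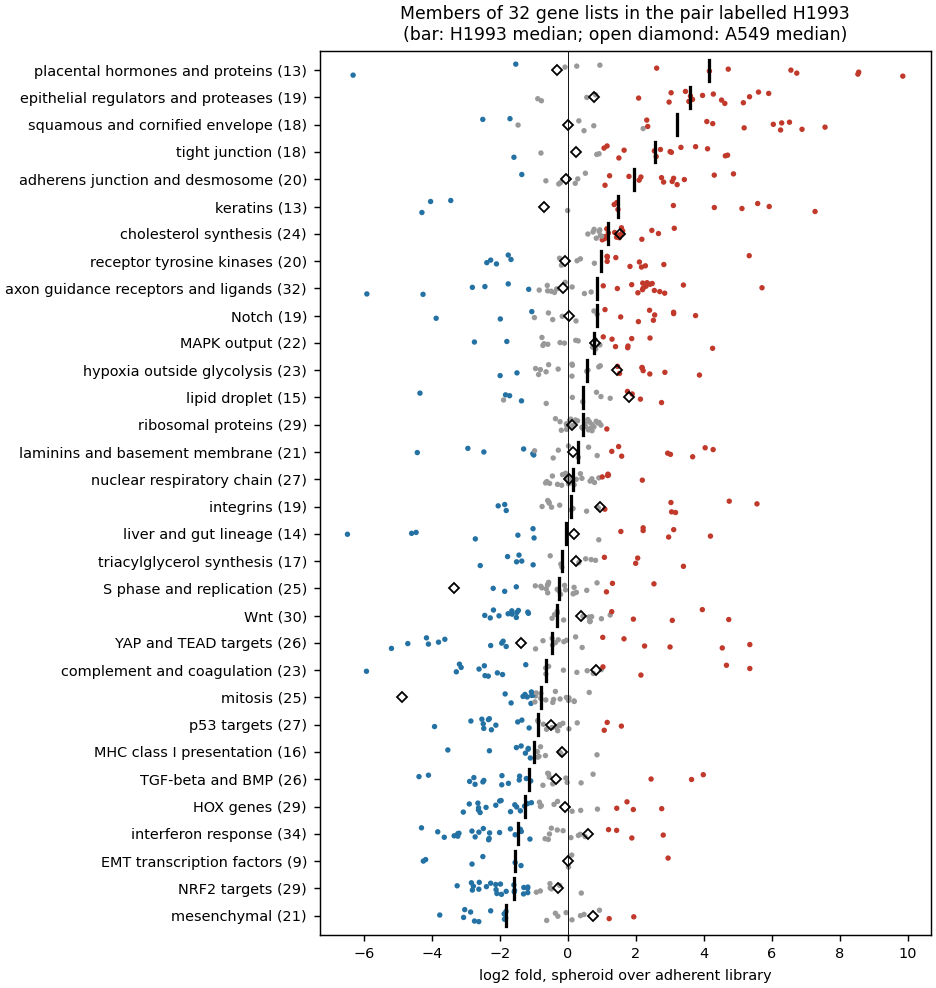
Members of 32 gene lists, each point the log2 fold of 1 measured gene in the H1993 pair (horizontal axis), red where higher, blue where lower and grey where neither. Black bars are the H1993 medians and open diamonds the A549 medians, with the number measured in brackets. Epithelial, squamous and placental lists lie at the top, between 1.94 and 4.16, and mesenchymal, NRF2 and interferon lists at the bottom, between -1.48 and -1.83, while mitosis genes have the most distant A549 diamond at -4.90.

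Matrix and adhesion genes were found on both sides. Of 19 measured integrin genes, 6 were higher (31.6%) and 3 lower (15.8%), beside 18.9% and 17.7% of all kept genes. ITGB4, the beta chain of the hemidesmosome receptor (chromosome 17, 75721328 to 75757818), had 1977, 14786, 590 and 24904 reads and a fold of 5.56 (5.45 to 5.69), and its partner ITGA6 was at 1.08. ITGB1, the chain shared by most matrix receptors, had 49167, 44676, 68408 and 14648 reads and a fold of -2.06 (-2.08 to -2.03). Of 21 laminin and basement membrane genes, 8 were higher and 6 lower. LAMB3, a chain of laminin 332, was at 3.01, with 1.48 in A549, whereas its partner chain gene LAMA3 was at 0.30 and -1.66. COL17A1, a hemidesmosome collagen, had 65, 1174, 57 and 1015 reads and folds of 4.27 and 4.06. COL4A1 and COL4A2, the main chains of basement membrane collagen, were lower at -4.44 and -2.48, and in A549 at -2.54 and -2.21. Of the matrix proteases and inhibitors, MMP24 and MMP7 were at -6.30 (-7.61 to -5.66) and -5.55 (-9.55 to -4.63), with 1797, 219, 1048 and 10 and 951, 187, 203 and 2 reads, while TIMP3 was the highest member.

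Axon guidance molecules, which also steer epithelial and vascular cells, were higher in 16 of 32 measured genes and lower in 6, with a median of 0.86 against -0.14 in A549. NRP1 and NRP2, co-receptors of semaphorins and vascular growth factors, had 4182, 3635, 9651 and 444 and 3368, 728, 1898 and 26 reads and folds of -4.27 and -5.92. SEMA6D, a transmembrane semaphorin, had 0, 0, 6 and 377 reads and a fold of 5.71, and EFNB2, an ephrin, 80, 72, 61 and 590 reads and a fold of 3.40. Of the 9 measured semaphorins of the list, SEMA3B, SEMA3E, SEMA4D, SEMA6A and SEMA6D were higher, SEMA3F was lower, and SEMA3A, SEMA3C and SEMA4B passed in neither direction.

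Lineage lists differed in their medians. Of 13 measured placental genes, 8 were higher and 2 lower, with a median of 4.16, or 3.58 with the 2 genes at 0 reads put at their bound. ALPP, placental alkaline phosphatase, had 2, 1, 34 and 3036 reads and a fold of 6.56 (6.16 to 7.18). The pregnancy glycoprotein genes PSG1, PSG4 and PSG5 had 8, 4, 8 and 3338, 13, 0, 28 and 2853 and 13, 3, 10 and 4066 reads, and since their copies are closely similar their reads may be shared. INSL4 and ADAM12, a metalloproteinase, were the lower members, at -6.33 and -1.54. Genes of liver and gut were higher in 6 of 14 and lower in 7 (median -0.05), neuroendocrine genes higher in 3 of 9 and lower in 4 (median -0.08), and cancer-testis antigens higher in 3 of 8 and lower in 2 (median 0.66). Lung lineage genes were mixed, 7 of 16 higher and 5 lower. SFTPA1, SFTPB and SFTPC, the surfactant protein genes, had fewer than 10 reads in both libraries of the pair, and NKX2-1, the lung lineage factor, had 0, 0, 12 and 13 reads, of which 8% were unique. FOXA2, an endoderm factor, had 424, 664, 745 and 89 reads and a fold of -2.87, with 3.96% unique reads. MUC1, a membrane mucin, had 364, 1106, 1205 and 14552 reads and a fold of 3.76.

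Most cell division genes did not pass the 2-fold rule in the H1993 pair. Of 25 measured mitosis genes, 0 were higher and 9 lower, with a median of -0.80, whereas all 25 were lower in A549 spheroids, with a median of -4.90. MKI67, the antigen Ki-67, had 6509, 63, 4863 and 2030 reads and a fold of -1.09 (-1.17 to -1.02) in the H1993 pair. CDK1, the kinase of mitotic entry, was at 0.18 and AURKB, a kinase of chromosome segregation, at -0.66, against -4.44 and -6.28 in A549. The spheroid difference of this list had a median of 4.09 and the adherent difference -0.31. Of 25 S phase genes, 3 were higher and 3 lower, with a median of -0.27 (A549 -3.35). Each count was 12% of the list, below the 18.9% and 17.7% of all kept genes. CCNE1, cyclin E1, had 540, 264, 433 and 2235 reads and a fold of 2.53 (2.38 to 2.69), against -1.10 in A549. PCNA, the sliding clamp of replication, was lower at -2.20 (-2.29 to -2.12). Of the cyclin-dependent kinase inhibitors, CDKN1C was at 3.56 in the H1993 pair and 3.52 in A549, and CDKN1A at -0.31 and 0.71.

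Targets of the tumour suppressor p53 were lower in 12 of 27 measured genes and higher in 3, with a median of -0.88 (A549 -0.50). TP53I3, an oxidoreductase, had 1163, 467, 972 and 55 reads and a fold of -3.93 (-4.40 to -3.58). BAX, a pore-forming death protein, was at -2.26, DDB2, of DNA repair, at -2.50 and GDF15, a stress cytokine, at -2.48. In these 4 genes H1993 spheroids were the lowest of the 4 libraries. MDM2, which degrades p53, was higher at 1.06 (0.99 to 1.14), and CDKN1A did not pass the rule.

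Receptor tyrosine kinases were higher in 10 of 20 measured genes and lower in 5, with a median of 0.96 (A549 -0.10). MET had 4545, 4083, 6549 and 26102 reads and a fold of 2.16 (2.12 to 2.20), with an A549 fold of -0.23 and an adherent difference of 0.39. EGFR, the epidermal growth factor receptor, had 4150, 3918, 3318 and 14331 reads and a fold of 2.28 (2.22 to 2.33). ERBB3, a relative with little kinase activity, was at 2.82, and 2.82 in A549. FGFR1 and IGF1R, receptors of fibroblast and insulin-like growth factors, were lower at -2.39 and -2.11. Among 13 measured neighbours of MET on 7q31, 6 were higher and 0 lower, with a median of 0.90. CAV2 and TES, a caveolin and a focal adhesion protein, were at 2.74 and 3.47, while CAV1, between CAV2 and MET, was at 0.27. Genes induced by MAPK signalling were higher in 8 of 22 and lower in 2, with a median of 0.76 (A549 0.78). DUSP5, a phosphatase of ERK, had 1002, 1479, 465 and 7942 reads and a fold of 4.25 (4.13 to 4.40). The immediate early genes EGR1 and FOS were lower at -2.76 and -1.80.

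Targets of the coactivators YAP and TAZ with their TEAD partners split. Of 26 measured targets, 10 were lower and 6 higher, and their median was -0.46, against 17 lower and 3 higher in A549, with a median of -1.38. CTGF (now CCN2), a matricellular protein, had 1371, 292, 1107 and 25 reads and a fold of -5.20 (-5.94 to -4.73), and -2.30 in A549. ANKRD1, a nuclear ankyrin protein, had 282, 54, 117 and 2467 reads and a fold of 4.54 (4.30 to 4.84), against -2.41 in A549. AMOTL2, an angiomotin that binds YAP, had 1867, 207, 1242 and 8879 reads and folds of 3.0 (2.92 to 3.09) and -3.23. CTGF, ANKRD1 and AMOTL2, commonly used readouts of the pathway, stood on opposite sides in the H1993 pair and on the same side in the A549 pair. In the Hippo core, VGLL3, a TEAD cofactor (chromosome 3, 86876388 to 86991119), had 377, 156, 1410 and 31048 reads and a fold of 4.62 (4.55 to 4.71), with -1.34 in A549. WWTR1, which encodes TAZ, had 4562, 5203, 5388 and 954 reads and a fold of -2.33 (-2.43 to -2.23), and YAP1 was at -0.41. TEAD1 and TEAD4 were at 0.18 and -0.87.

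Signals of the TGF-beta and BMP family were lower in 14 of 26 measured genes and higher in 3, with a median of -1.16 (A549 -0.36). ID1 and ID3, direct targets of BMP signalling, had 5115, 1307, 3522 and 148 and 3889, 550, 4102 and 947 reads and folds of -4.39 and -1.95, with -2.04 and -2.89 in A549. TGFBR2 and BMPR2, type II receptors, were at -1.76 and -1.44. NOG, noggin, a BMP antagonist, had 20, 12, 30 and 450 reads and a fold of 3.98 (3.54 to 4.66), and INHBA and INHBB, subunits of activin, were at 3.63 and 2.44. A link between the levels of NOG and of the ID genes was not tested. ID1, ID2, ID3 and ID4 all passed the rule on the lower side.

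Of 19 Notch genes, 9 were higher and 3 lower (median 0.85, A549 0.04). NOTCH3, a receptor, had 803, 1218, 1036 and 5275 reads and a fold of 2.51 (2.42 to 2.61), and NRARP and HEY1, targets of the pathway, were at 3.11 and 3.11. HES1, another target, was at -0.17. Among 30 Wnt genes, 12 were lower and 5 higher (median -0.32, A549 0.37). AXIN2 and RNF43, feedback targets, were at -1.51 and -1.66, and the ligand gene WNT9A had 93, 202, 44 and 1089 reads and a fold of 4.73.

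Interferon-stimulated genes were lower in 20 of 34 measured members and higher in 4, with a median of -1.48 against 0.58 in the A549 pair. OAS3, a sensor of double-stranded RNA (chromosome 12, 112938352 to 112973249), had 1404, 598, 1616 and 99 reads and a fold of -3.84 (-4.17 to -3.57). IFI6, an interferon-induced membrane protein, had 118, 390, 1217 and 85 reads and a fold of -3.64 (-4.01 to -3.36), with an A549 fold of 1.64 and an adherent difference of 3.21. The members did not move as 1 block, since IFIT2 and ISG15 were higher at 2.80 (2.56 to 3.09) and 1.88 (1.64 to 2.14). Over the 8 members with at least 50 intron reads in 1 library of the pair, the median was -0.32 by exons and -0.72 by introns. Of 16 genes of MHC class I presentation, 8 were lower and 0 higher (median -1.01). PSMB9 and PSMB8, immunoproteasome subunits, were at -3.54 and -2.32, and B2M, the light chain, at -0.21.

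The letters GAAA, 2 further bases and GAAA again, the core of the interferon-stimulated response element, were present on either strand in 10 of 16 promoters (62.5%) of lower interferon genes, in 5 of 11 (45.5%) of the other list members and in 3.07% of all promoters. The promoters of IFI6, with 3 matches, and of OAS3, with 2, are shown as examples of lower genes with well-measured folds, 5′ to 3′ with the matches in capitals. Lower and not lower members of the list both held the letters more often than promoters at large. The deposited span of OAS3 also starts inside its printed window.

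IFI6, chr1:27672193-27672442, minus strand: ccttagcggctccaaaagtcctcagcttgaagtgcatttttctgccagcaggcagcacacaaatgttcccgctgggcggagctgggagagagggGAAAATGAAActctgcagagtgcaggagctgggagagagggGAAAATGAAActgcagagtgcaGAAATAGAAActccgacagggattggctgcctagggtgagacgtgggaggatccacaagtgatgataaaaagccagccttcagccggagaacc

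OAS3, chr12:112938224-112938473, plus strand: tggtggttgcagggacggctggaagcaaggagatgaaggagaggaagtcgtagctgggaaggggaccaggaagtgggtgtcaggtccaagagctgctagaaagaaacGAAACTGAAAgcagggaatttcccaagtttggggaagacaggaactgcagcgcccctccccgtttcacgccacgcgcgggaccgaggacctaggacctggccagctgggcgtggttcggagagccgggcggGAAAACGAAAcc

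Targets of NRF2 were lower in 22 of 29 measured genes and higher in 0. The list medians were -1.60 for the H1993 pair, -0.29 for A549, -2.19 for the spheroid difference and -0.55 for the adherent difference. PGD, which makes NADPH in the pentose phosphate pathway, had 21224, 14771, 20875 and 3009 reads and a fold of -2.63. GPX2, a glutathione peroxidase, had 5656, 14781, 274 and 33 reads, an adherent difference of -4.49 and a fold of -2.82 (-3.45 to -2.36). GCLM, a subunit of glutathione synthesis, did not pass the rule at 0.39, while its partner GCLC was at -2.10. The letters TGACNNNGC, the core of the antioxidant response element, were in 4 of 15 promoters (26.7%) of lower NRF2 targets, in 2 of 5 (40%) of the others and in 11% of all promoters.

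Cholesterol synthesis was higher in both pairs, in 16 of 24 genes of the H1993 pair (median 1.16) and 18 of 24 in A549 (median 1.53), with 0 lower in either. MSMO1, a sterol oxidase of the pathway, had 831, 5922, 1232 and 6953 reads and folds of 2.66 and 2.76. The list's spheroid difference had a median of 0.12 and its adherent difference of 0.11. Hypoxia genes outside glycolysis were higher in 8 of 23 and lower in 2 (median 0.55), against 18 and 0 in A549 (median 1.43). NDRG1, a stress-induced protein, had 1056, 26280, 937 and 12211 reads and folds of 3.87 and 4.56, while CA9, a carbonic anhydrase, was at 0.11 and 3.68. HK2, a hexokinase of glycolysis, had 31, 560, 197 and 2612 reads and folds of 3.88 and 4.02, but GAPDH, of the same pathway, was at -1.16 (-1.18 to -1.14) and 0.14. In triacylglycerol synthesis and lipid droplets, 4 of 17 (23.5%) and 4 of 15 (26.7%) measured genes were higher and 6 (35.3%) and 4 (26.7%) lower. Over all kept genes the shares were 18.9% higher and 17.7% lower. UGCG, which makes glucosylceramide, had 589, 1012, 570 and 6239 reads and a fold of 3.61 (3.49 to 3.74) against 0.71 in A549.

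HOX genes, which record position along the body axis, were lower in 17 of 29 measured genes and higher in 4, with a median of -1.28 against -0.10 in A549. HOXB3 had 333, 225, 446 and 73 reads and a fold of -2.41 (-2.82 to -2.09), and HOXC4 88, 89, 174 and 19 reads and a fold of -2.91. The higher members were HOXA9, HOXA11, HOXA13 and HOXC11, all from the 5′ ends of their clusters, with HOXA13 at 1.43 from 131, 146, 66 and 162 reads. Several HOX genes overlap other gene models and have few unique reads, HOXC8 with 4.37% among them.

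TPM is scaled by exon length and gives the level of a gene relative to all transcripts of its library. The genes given here were among those with the largest TPM differences between the 2 libraries of the pair. In the deposited TPM, S100A6 rose from 3513 to 16852 between the library labelled H1993 adherent and H1993 spheroids, KRT19 from 55.9 to 2860 and SLC12A7, a potassium-chloride cotransporter, from 35.9 to 1747. MT-CO1, a mitochondrially encoded oxidase subunit, went from 47503 to 19193, ALDH1A1 from 9045 to 334 and FTL, the ferritin light chain, from 9958 to 2494. In A549, SLC12A7 was at 30.4 and 36.5 TPM and FTL at 21464 and 21954. For these 2 genes the 3 other libraries therefore lay on the same side of H1993 spheroids.

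Folds of the H1993 pair followed position along the chromosomes. Genes reaching 100 reads in all 4 libraries were put in windows of 50 neighbours (9500 genes, 179 windows), and 28 windows had a median of at least 0.5 in size, 18 higher and 10 lower. In the A549 pair the count was 0 and the largest window was 0.36. The highest window, on chromosome 7 from ASNS on (start 97852118, hg38), had a median of 1.45, with 47 of 50 genes above 0 and 36 at least 2-fold higher. Its A549 median was -0.17, its spheroid difference 1.74 and its adherent difference 0.19. The next window, from AP1S1 to CAV2, had a median of 1.14. The window after it, from CAV1 to CREB3L2, stood at -0.22, with 29 of 50 genes below 0. On the short arm of chromosome 20, from ZCCHC3 to ANKEF1 (296968 to 10058303), the median was -1.16, with 47 of 50 genes below 0, and its A549 median was 0.04. Other high windows were on chromosome 1 up to ACOT7 at 1.27 and on chromosome 18 from TTC39C to RAB27B at 1.18. DSC2 and DSG2 of the desmosome list lie within the span of the chromosome 18 window. On chromosome 9 the windows on the short arm and around the centromere stood at -0.59 and -0.75, and those of the long arm between 0.48 and 0.85, where the adherent difference ran from -0.32 to -0.53. A window median describes its genes together, and its part in the fold of any single gene was not tested. Copy number was not measured.

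**Figure D5:**
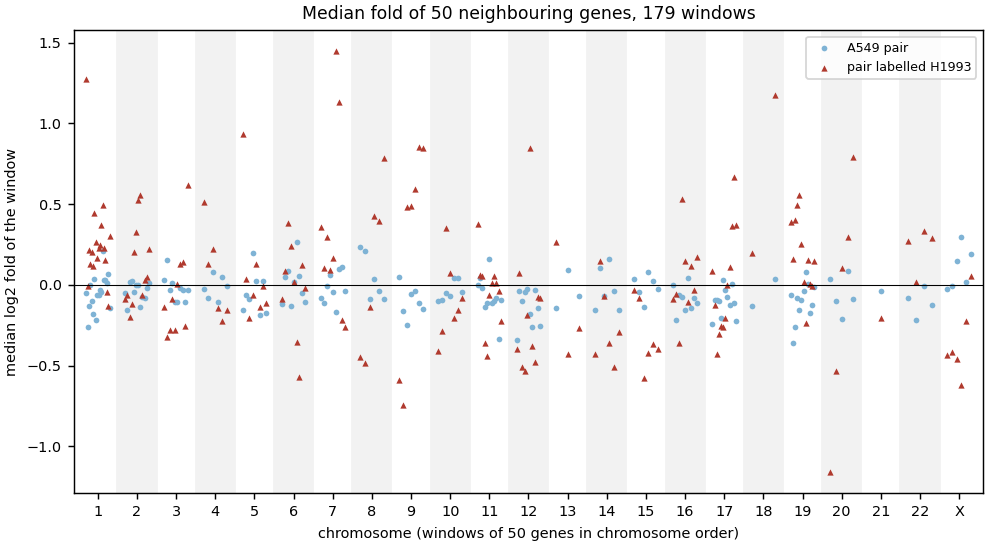
Median log2 fold of 50 neighbouring genes (vertical axis), with windows in order within each chromosome (horizontal axis). Red triangles are the H1993 pair and blue circles the A549 pair, 179 windows each. The triangles reach 1.45 on chromosome 7 and -1.16 on chromosome 20, while all circles stay within 0.36 of 0.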

How the data were processed

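Per the labels' protocols, RNA went into a strand-specific mRNA kit with few PCR cycles. In the deposited counts, duplicates cannot be told from separate molecules. The submitters' processing notes name hg38. No source used here gives the aligner, counter, annotation or strand setting, so antisense and overlapping genes, and genes with close copies, are uncertain. Each library has its own deposited table of 43622 genes with whole-number counts (total and unique exon reads, intron reads, gene reads) and TPM, per the file headers.

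Total exon counts were filtered with filterByExpr, each library its own group (16757 genes kept), and scaled by TMM over the 4 libraries (edgeR 4.0.16, R 4.3.3). The prior count of the log2 folds was 2, and intervals were 95% Clopper-Pearson (SciPy 1.17.1). With 1 library per group no test was run and no p-value is given. A floor of 3 reads, between 0.173 and 0.194 CPM in the H1993 pair, served for libraries at 0.

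The members and the 64 gene lists were chosen with earlier results of these data known. A list member counted as measured where either library of the pair reached 10 reads. Rules for naming chose the 15 highest and 15 lowest genes with at least 500 reads. They also chose the 6 highest and 6 lowest in each of the 3 patterns of library differences. Up to 3 called members of each list each way and a fixed set were added. Not all genes so chosen are named in the text. CDH1, DGAT1, DGAT2, GPAM and PLIN2 of the fixed set are among those left out. Other members were named to complete a pathway, after their values were seen. Alternatives were other scalings (DESeq2 1.42.0 size factors among them), filters, prior counts and read types. Promoters are RefSeq windows of GRCh38.p14. Some genes are not reported here.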

Additional observations from a re-analysis of the deposited data

Results flagged for a closer look

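Of the 215 genes named here, 18 passed the 2-fold rule in opposite directions in the 2 pairs of libraries. Over all 16757 kept genes, 204 were higher in H1993 and lower in A549 spheroids, and 286 the reverse. Many named genes were chosen by the size of their folds, so the 18 describe the named genes alone. With 1 library per group this difference was not tested. Values below are the log2 fold of the H1993 pair minus that of the A549 pair.

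Lower in H1993 spheroids and higher in A549 spheroids were 6 genes. The differences were IFI6 -5.28, HAS2 -4.97, GPX2 -4.13, CSTA -3.92, CLDN2 -3.60 and RNF43 -2.82. IFI6 is induced by interferon, HAS2 makes hyaluronan and RNF43 restrains Wnt receptors. The H1993 fold of CSTA rests on few reads, as given above.

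Higher in H1993 spheroids and lower in A549 spheroids were 12 genes. The differences were KRT18 2.43, CCNE1 3.63, SEMA3E 4.26, NRARP 5.02, INHBB 5.48, VGLL3 5.96, AMOTL2 6.24, CDH3 6.30, ANKRD1 6.95, ANXA8 8.28, PSG4 9.68 and PSG5 10.2. ANKRD1 and AMOTL2 are targets of YAP and TAZ, INHBB encodes an activin subunit and CDH3 P-cadherin. Reads of the PSG genes and of ANXA8 may be shared with close copies. The A549 folds of PSG4 and PSG5 rest on few reads, as given above. The part of a line difference in these values was not tested.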

How the results depend on the processing

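The counts of higher and lower genes stayed within 1.5 times the reported 3172 and 2970 under the other scalings and prior counts, unique or intron reads, no filter, and no mitochondrial genes. With a minimum of 100 reads in the higher library they were 2050 and 1889, and at 4-fold 1493 and 1313, where fewer genes can pass by construction. A filter added after seeing the data, 10 reads at median depth in at least 2 libraries, kept 15273 genes and gave 2545 and 2784, since it drops genes present in 1 library. Scaling by upper quartile moved the median fold of all kept genes from 0.01 to -0.09 and gave 2874 and 3322. Of 64 list medians, upper quartile scaling turned the sign of 4 and library size that of 1, all within 0.105 of 0. The mean differed in sign from the median in 6 lists, among them triacylglycerol synthesis (-0.18 and 0.01) and chemokines and cytokines (-0.68 and 0.09). With members of at least 100 reads, 2 medians turned, cancer-testis antigens (0.66 to -0.71) and the Hippo core (0.10 to -0.12). Sizes moved more often than signs. In all, 12 of 62 list values moved by more than 1 standard error of the list's folds when restricted to at least 100 reads and 15 of 64 with the mean. With at least 100 reads, mucins went from 0.19 to 3.06, squamous genes from 3.21 to 5.15, placental genes from 4.16 to 5.64, EMT factors from -1.56 to -2.67, lung lineage from 0.47 to 1.47, liver and gut from -0.05 to -2.10, complement from -0.66 to -1.59 and Wnt from -0.32 to -0.82. Interferon genes went from -1.48 to -1.12 with at least 100 reads, and CEACAM genes from 2.67 to 1.59. By the mean, mesenchymal genes went from -1.83 to -1.15, fibroblast markers from -1.84 to -0.99, endothelial markers from 1.87 to 1.01 and neighbours of MET from 0.90 to 1.52. Integrins went from 0.09 to 0.72 and 0.70 under the 2 settings, and retinoid and vitamin D genes from -0.21 to -1.08 by the mean. Of 352 genes chosen by the rules for naming, 346 passed the 2-fold rule and 343 still did with unique reads. The fold of SOX2, a stem cell factor, went from -1.70 to 0, since none of its reads were unique. No paired analysis was possible because each group held 1 library, numbered 1 in accession order, so the numbers pair nothing. Genes with few reads have wide counting intervals, and 3 reads set the floor.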

Other observations

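A group of 19 genes, chosen after their values were seen, was at least 4-fold higher in the library labelled H1993 adherent than in each of the 3 other libraries, with at least 500 reads there. HAS2, which makes hyaluronan, had 95, 246, 2618 and 179 reads in A549 adherent cells, A549 spheroids, the library labelled H1993 adherent and H1993 spheroids. BCHE, butyrylcholinesterase, had 38, 82, 1168 and 40 reads, CDH6, a kidney and fetal cadherin, 88, 70, 1382 and 177 and ALX1, a homeobox factor of cranial mesenchyme, 253, 296, 1317 and 39. MYOCD, the coactivator of smooth muscle genes, had 147, 8, 1394 and 38 reads. Being highest in that library was the rule of choice and is no result.

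Noncoding genes also differed between the libraries. Among 895 kept long intergenic noncoding RNAs, 211 (23.6%) were higher and 190 (21.2%) lower, against 18.2% and 17.6% of 14279 protein-coding genes. The filter could keep a gene through its reads in 1 library alone, where a call is more likely. The part of the filter in these shares was not tested. Of 29 measured ribosomal protein genes, 1 was higher (3.45%) and 0 lower, with a median of 0.43. The list holds only part of this family. Outside it, RPS27, RPS25, RPS21, RPL7A and RPL17 passed the 2-fold rule at 1.35, 1.56, 1.37, 1.23 and 1.57. They were seen through their large gains in TPM, and the other genes outside the list were not counted. Nuclear respiratory chain genes were higher in 5 of 27 and lower in 0 (median 0.15), a share of 18.5% higher beside 18.9% of all kept genes. Among cytokines, IL1B, a mediator of inflammation, had 14, 174, 7 and 600 reads and a fold of 6.21 (5.54 to 7.91), while CCL2, a monocyte attractant, had 911, 36, 355 and 24 reads and a fold of -3.62 (-4.38 to -3.12). Complement and coagulation genes were lower in 11 of 23 and higher in 4. F3, tissue factor, had 82, 387, 79 and 2947 reads and a fold of 5.35 (5.07 to 5.73).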
